A study of Mus musculus with 14 samples.

Results

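Mouse small cell lung cancer cells carrying an inducible YAP5SA were compared after 21 days of expression with cells taken at day 0, across all genes. The comparison holds 4 of the 14 libraries of the series, 2 at day 21 and 2 at day 0, and the libraries of days 3 and 7 supply the course between them. RNA was sequenced from cell lines of adult lung tumours of mixed strain, grown in HITES medium. Day 0 replicate 2 and both day 21 libraries are labelled with CGRPCreER/+, with floxed alleles that include Rbf/f and P53f/f, and with the transgenes Rosa26rtTA and Tet-onYAP5SA. The mice were injected with TM. Floxed Rb1 and Trp53 were thus shared by both days, with a Cre driven from the calcitonin gene-related peptide promoter of pulmonary neuroendocrine cells. Day 0 replicate 1 is the exception, because its source and genotype text lists no rtTA and no YAP5SA and writes P59 for P53. Nothing in the labels says whether the cells are 1 clone, or whether the 2 libraries of a day came from separate cultures. The p-values below measure only the spread between those libraries, which may be technical.

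YAP is a transcriptional coactivator that binds TEAD factors at enhancers and promoters. The Hippo kinases LATS1 and LATS2 phosphorylate it on serines, which holds it in the cytoplasm or sends it to degradation, and YAP5SA has those serines replaced by alanine. Small cell lung cancer is a neuroendocrine tumour driven by lineage transcription factors of neural type and rich in secretory granules and neuronal proteins. YAP is typically silent in its neuroendocrine cells. In normal lung, YAP and TAZ act in the flat alveolar type I cells that form the gas-exchange surface.

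The libraries held 9788032 and 9999781 counts over genes at day 0 and 10520200 and 10364505 at day 21. Levels are depth-scaled counts (CPM), adjusted by the trimmed mean of M values (TMM), and are given for both libraries of a day. They compare a gene between days and not one gene with another. Where a day held 0 counts in both libraries the fold is a lower bound at 3 counts over the day (0.141 CPM at day 0). Genes with 1 to 3 counts over the day have a ratio of counts and the 95% interval that counting allows. Both cover counting error only. Genes just above 3 counts at day 0, among them Cyr61, Ajuba, Fhl1, Scel, Pdpn, Col4a3 and Lox, have a fitted fold without an interval. Those folds also rest on few day 0 counts and are imprecise. A library labelled NE replicate 2, which is not in this comparison or its fit, never exceeded day 0 replicate 1 in the counts of 32926 genes and matched a random 85.7% of its reads. Without day 0 replicate 1, 4878 genes were higher at day 21 and 4234 lower, against 5273 and 4759 with it. The labels give no transgene-free library at the later days, so YAP5SA and time in culture cannot be told apart. In these bulk samples a change in the share of cells and a change of RNA per cell cannot be told apart either.

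Most of the transcriptome had moved by day 21, and the steepest changes were nearly all gains. The quasi-likelihood test of edgeR called 10032 of 13996 genes (71.7%) at an adjusted p under 0.05, with 5273 (37.7%) higher and 4759 (34.0%) lower. With TMM scaling the 2 directions were near balance among all calls but not among steep ones. The balance among all calls depends on the scaling. With genes at 0 counts set to the floor, changes of at least 2-fold numbered 2693 higher and 1692 lower, at least 4-fold 1625 and 487, and at least 16-fold 806 and 26. Library totals in place of TMM moved the median change of all genes from 0.02 to -0.12 on the log2 scale and gave 4470 higher and 5759 lower. A fit of all 14 libraries called 2728 higher and 1858 lower and reduced 57 of 90 counts of risen or fallen members, over all 45 lists, by more than 1.5 times.

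Genes that were clearly expressed on 1 of the 2 days show the same imbalance without the test. Of 10181 genes with a mean of at least 10 CPM at day 21, 464 had been at least 16-fold lower at day 0, and 339 had been under 1 CPM. Of 9800 genes with at least 10 CPM at day 0, 6 were at least 16-fold lower at day 21 and 3 were under 1 CPM. In 86 genes both day 0 libraries held 0 counts and both day 21 libraries at least 10 CPM, and in 0 genes was this pattern found the other way. Genes raised at least 4-fold in the fit (1632) took 1.29% and 1.28% of the CPM at day 0 and 13.2% and 13.7% at day 21. They had already reached 12.6% and 12.5% at day 7. Genes lowered at least 4-fold in the fit (487) went from 4.04% and 4.12% to 0.599% and 0.606%. Gene sets chosen by this contrast are described here and not tested.

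**Figure D1:**
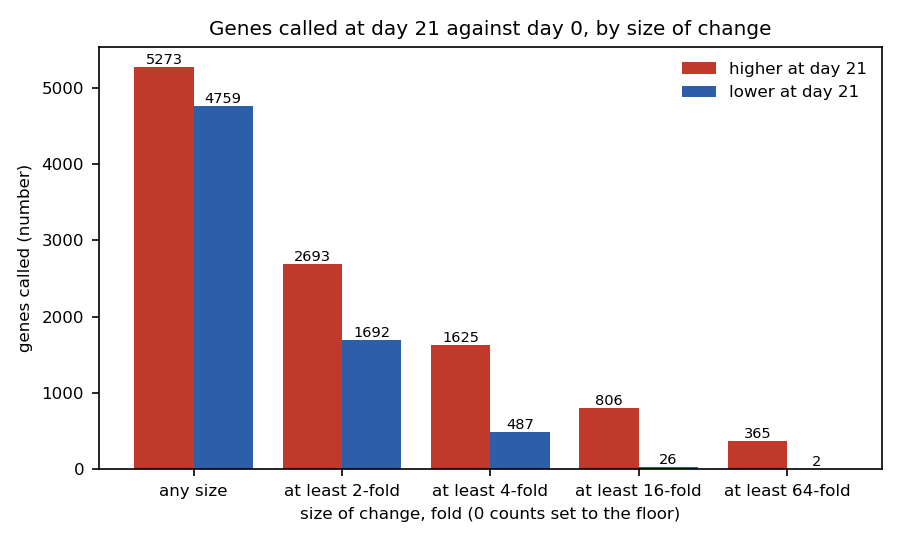
Genes called at day 21 against day 0, by the smallest fold change counted (x axis) and direction (bars from 0, number of genes), with genes at 0 counts on a day set to the floor of 3 counts. With TMM scaling, the bars are close to equal at any size (5273 higher, 4759 lower) and differ most, in ratio, at 64-fold and above (365 higher, 2 lower).

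Yap1 itself (chromosome 9, 7931999 to 8004596, minus strand of mm10) was at 7.97 and 7.22 CPM at day 0 and 214 and 224 CPM at day 21, 28.8-fold higher (log2 change 4.85, SE 0.12, adjusted p = 1.1e-21). Its mean was 1154 CPM at day 3 and 779.9 CPM at day 7, so the day 21 level is the lowest of the induced days. A single count holds transgene and endogenous transcripts. Both day 0 libraries lay under 8 CPM, including replicate 1, whose text lists no transgene. The paralogue Wwtr1, which encodes TAZ, had 0 counts at day 0, under 1 CPM at days 3 and 7 and 10.1 and 8.81 CPM at day 21 (at least 67.0-fold higher).

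The floxed tumour suppressor genes Rb1 and Trp53 were both lower at day 21. Rb1 (chromosome 14, 73183673 to 73325822) went from 79.9 and 77.5 to 30.3 and 27.2 CPM (2.73-fold lower). Trp53 (chromosome 11, 69580359 to 69591873) went from 11.9 and 13.6 to 6.59 and 5.74 CPM (2.06-fold lower). Gene counts do not show which exons were read, so they do not check the deletions.

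Direct targets of YAP and TAZ rose together. Of 22 listed, 20 had enough counts to be tested, 19 rose and 0 fell, with a median log2 change of 7.26 (6.01 with genes at 0 counts set to the floor and those at 1 to 3 at their ratio of counts) against 0.02 for all genes. A gene near 0 at day 0 was tested only if it was expressed on a later day, so in this and the following lists the filter fixed part of an upward direction. Each list count is to be read beside 37.7% higher and 34.0% lower over all genes tested. The matricellular gene Ctgf (chromosome 10, 24595442 to 24598683) went from 0 in both libraries to 547 and 544 CPM, at least 3854-fold higher. Its relative Cyr61 (chromosome 3, 145646976 to 145649981) went from 0.190 and 0.187 to 932 and 1102 CPM (5063-fold). Ankrd1, an ankyrin repeat protein and standard YAP reporter (chromosome 19, 36111961 to 36120099), went from 0 to 468 and 451 CPM (at least 3248-fold). All 3 separated the days without overlap, which the naming rule required of the steepest rises, Ctgf and Ankrd1 among them. Myof, a membrane repair protein, stood at 262 and 277 CPM after 0.0949 and 0.0937, a ratio of 2859-fold (95% counting interval 791 to 23616). F3, the tissue factor that starts coagulation, rose 29.4-fold to 875 and 820.0 CPM. Asap1 was the tested member that was not called (67.7 and 69.1 CPM at day 0, 78.8 and 76.3 at day 21).

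Promoters of these genes were read for the TEAD motif GGAATG, on either strand, in the RefSeq windows of 250 bases before to 50 after the start site (build GRCm38.p6). Of the 19 called targets 13 had a window and 7 held the motif. Those of Cyr61, Ankrd1 and Axl are shown because these are among the steepest rises of targets that hold it. Capitals mark the motif, written CATTCC where it lies on the other strand. All 3 genes are on the minus strand, and sequences run 5′ to 3′ along the gene.
Cyr61, chr3:145649936-145650235: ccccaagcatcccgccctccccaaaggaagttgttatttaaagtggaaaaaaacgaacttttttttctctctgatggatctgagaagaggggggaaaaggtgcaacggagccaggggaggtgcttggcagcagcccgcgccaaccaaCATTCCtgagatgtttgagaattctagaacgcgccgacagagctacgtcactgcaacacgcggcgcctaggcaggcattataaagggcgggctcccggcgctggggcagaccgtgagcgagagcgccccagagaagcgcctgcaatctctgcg
Ankrd1, chr19:36119795-36120094: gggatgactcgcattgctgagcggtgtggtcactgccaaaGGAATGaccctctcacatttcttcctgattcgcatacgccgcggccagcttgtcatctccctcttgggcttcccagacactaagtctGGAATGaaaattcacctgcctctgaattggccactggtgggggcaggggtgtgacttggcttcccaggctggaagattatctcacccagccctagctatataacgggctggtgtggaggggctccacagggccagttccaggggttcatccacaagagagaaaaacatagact
Axl, chr7:25788684-25788983: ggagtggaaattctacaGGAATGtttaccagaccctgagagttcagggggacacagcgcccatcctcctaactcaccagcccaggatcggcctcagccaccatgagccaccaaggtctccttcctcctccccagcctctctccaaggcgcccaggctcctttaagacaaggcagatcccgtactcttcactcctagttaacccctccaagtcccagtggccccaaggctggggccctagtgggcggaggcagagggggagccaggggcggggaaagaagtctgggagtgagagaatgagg
In Cyr61 the motif began 103 bases upstream of the RefSeq start site, in Ankrd1 at 210 and 123 bases and in Axl at 233 bases. The Ankrd1 window lies inside the GENCODE span of that gene, which reaches 36120099, so its motifs are upstream of the RefSeq start only. GGAATG was present in 18.9% of 1636 windows of genes raised at least 4-fold, 12.5% of 481 windows of genes lowered at least 4-fold and 12.3% of 13926 windows of all genes tested. The AP-1 motif TGANTCA was in 9.60%, 9.56% and 5.23% of the same windows, but in 8.09% and 5.26% of windows of genes raised and lowered at least 2-fold, the latter close to the share of all genes. The E-box CACGTG, searched as a comparison, was in 6.91%, 4.99% and 9.60%. None of the 3 motifs contains another, and each was searched on both strands. These shares are descriptions: genes were chosen by the same contrast, a gene can have several windows, and a match is not a bound site.

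Hippo components rose as a group, including genes that restrain YAP, although Lats2, Amotl2 and Ptpn14 are also in the target list. Of 34 Hippo genes tested among 38 listed, 29 rose, 2 fell and 3 were not called, and the median log2 change was 1.34. Lats2, a kinase that inactivates YAP, was at 0.0949 and 0.187 CPM at day 0 and 252 and 287 CPM at day 21, a ratio of 1906-fold (95% counting interval 652 to 9245). Its partner kinase Lats1 rose 1.18-fold (103 and 97.9 to 114 and 122 CPM), a call lost with library totals, without day 0 replicate 2 and without day 21 replicate 2. Amotl2 and Ptpn14, which hold YAP outside the nucleus, rose 160.4-fold and 99.7-fold. Amotl2 went from 3.61 and 4.87 to 613 and 752 CPM, below its mean of 1182 CPM at day 7. Ajuba, a LIM protein that inhibits LATS kinases, rose from 0.190 and 0.187 to 239 and 283 CPM (1298-fold).

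Among the TEAD factors that carry YAP to DNA, Tead4 showed the steepest change, from 0 in both libraries to 63.0 and 71.9 CPM (at least 477-fold). Tead1 was already at 219 and 216 CPM at day 0 and rose 3.25-fold to 675 and 742 CPM. Tead2 rose 4.94-fold and Tead3 1.79-fold. Taok2 and Tnik, upstream kinases, were the 2 that fell (2.44-fold and 1.93-fold). The tumour suppressor Nf2 (199.6 to 215 CPM in the mean) was not called.

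**Figure D2:**
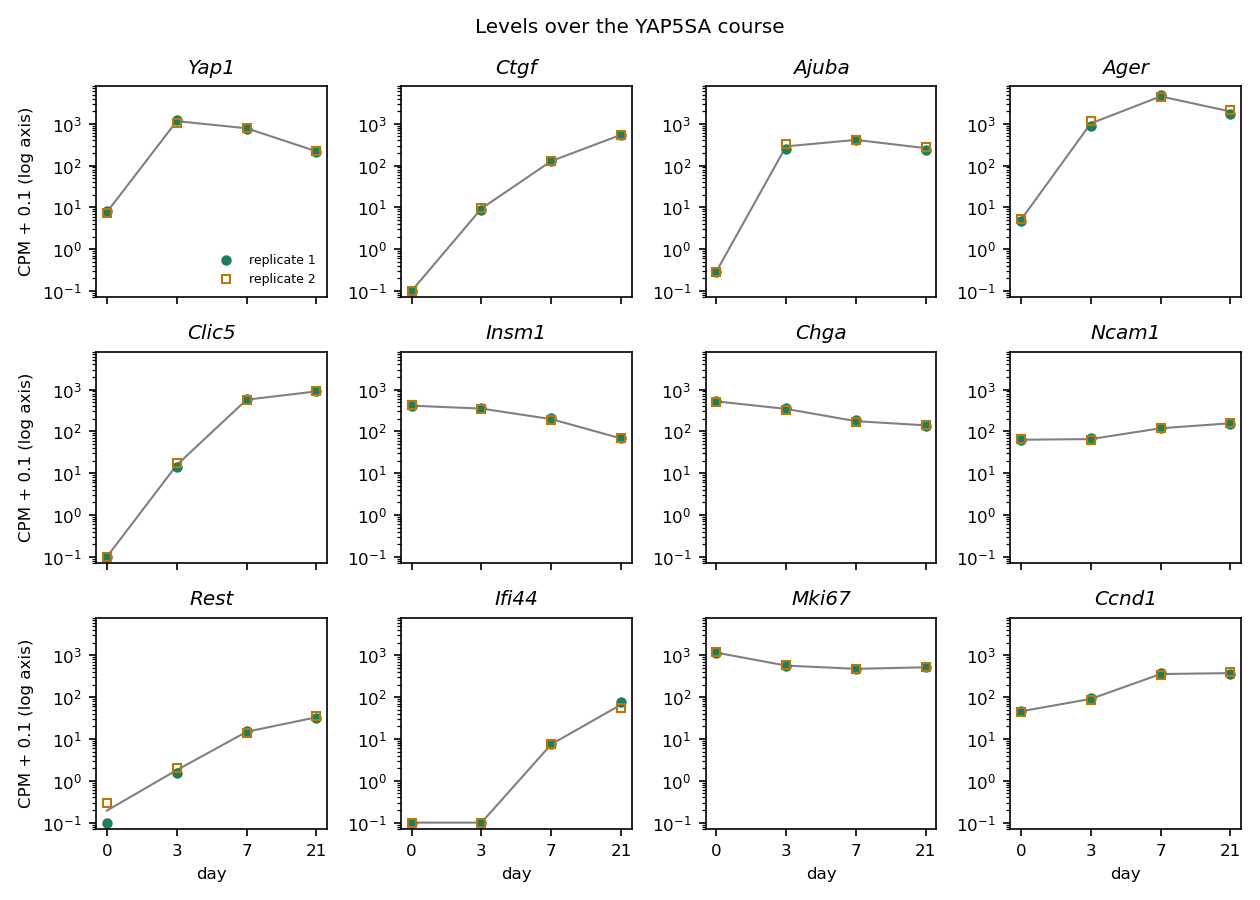
Level of 12 genes in each YAP5SA library (y axis, CPM + 0.1 on a log axis; x axis, day 0, 3, 7 or 21, evenly spaced), 2 points per day joined at their mean. Yap1 is highest at day 3, Ager at day 7, Ctgf and Ifi44 at day 21, and Insm1 is lowest at day 21.

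The neuroendocrine programme was lowered broadly but not erased. All 16 tested transcription factors of this class fell, of 30 listed, with a median log2 change of -2.04. Insm1, a zinc finger factor of neuroendocrine differentiation (chromosome 2, 146221921 to 146225020), fell 6.10-fold (log2 change -2.61, SE 0.08, adjusted p = 2.2e-19), from 403 and 420.5 to 67.4 and 67.6 CPM. The zinc finger factors St18 and Myt1 fell 6.90-fold and 6.81-fold. St18 had been lower still at day 7 (mean 14.5 CPM, against 26.7 CPM at day 21), while Myt1 was lowest at day 21. Prox1 fell 3.66-fold, from 257 and 259 to 75.4 and 65.4 CPM. Nkx2-1, which marks lung epithelium in general, was less affected, at 817 and 752 and then 402 and 429 CPM (1.89-fold lower). Of the Myc paralogues, Mycl fell 2.63-fold to 28.9 and 29.7 CPM while Myc rose 3.20-fold, from 30.1 and 29.4 to 93.0 and 97.5 CPM. Neurod1 held at most 1 count over both libraries of a day.

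Genes of the secretory granule followed, with 14 of 20 tested lower and 4 higher (29 listed, median log2 change -1.26). The prohormone convertases Pcsk2 and Pcsk1 fell 11.2-fold and 5.95-fold, Pcsk2 from 329.7 and 371 to 33.8 and 28.8 CPM. Chromogranin A, Chga, went from 528 and 515 to 135 and 143 CPM (3.74-fold). Other enzymes of peptide processing went the other way. Carboxypeptidase E, Cpe, rose from 242 and 237 to 389 and 384 CPM (1.61-fold) and the amidating enzyme Pam rose 1.13-fold (adjusted p = 0.0301). That call was lost with library totals, without a count filter, and without day 21 replicate 1 or either day 0 library, and the count of higher members was 2 with library totals and without either day 0 library. The granule peptide gene Vgf was not called, at 88.6 and 88.0 and 89.5 and 99.5 CPM, after a mean of 315 CPM at day 7.

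Of 11 tested amine synthesis and storage genes (16 listed), 6 fell and 4 rose, beside 34.0% lower and 37.7% higher over all genes tested. Th and Ddc, which make dopamine, fell 6.91-fold and 7.04-fold, Ddc from 351 and 374 to 55.8 and 47.2 CPM. Both vesicle transporters, Slc18a1 and Slc18a2, were also lower, Slc18a2 2.26-fold. Th and Ddc had been lower still at day 7, at means of 10.4 and 14.8 CPM, whereas both transporters were lowest at day 21. The degrading enzyme gene Maoa rose 7.92-fold, to 171 and 143 CPM. Synthesis genes were not all lower: Tph2, a serotonin synthesis enzyme, was called higher near the detection limit, at 0.394 and 0.693 CPM after 0.0949 and 0, a call lost with DESeq2, without day 0 replicate 2 and without day 21 replicate 2. Gch1, which makes the cofactor of Th, was not called (116 and 113 CPM in the mean).

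Exocytosis genes were lower in 28 of 34 tested (36 listed) and higher in 5, with a median log2 change of -1.35. The summed level of the list had a mean of 3859 CPM at day 7 and was 2548 and 2523 CPM at day 21. Syt7, a calcium sensor of granule release, went from 1179 and 1252 to 219 and 218 CPM (5.56-fold). The complexin Cplx2 went from 970.1 and 1041 to 176 and 174 CPM (5.74-fold). Syt7 and Cplx2 had been lower still at day 7, at means of 84.4 and 132 CPM. Syt1 and Cadps, which act in the same step, fell 6.99-fold and 5.51-fold. The related complexin Cplx1 rose to 14.8 and 14.8 CPM from 3.23 and 3.37, after a mean of 311 CPM at day 7. Syp, the vesicle protein used to diagnose these tumours, fell 3.21-fold, whereas the diagnostic adhesion molecule Ncam1 rose 2.48-fold, from 61.7 and 64.4 to 150.4 and 162 CPM. Of 10 listed diagnostic neuroendocrine markers, 9 were tested, 8 fell and Ncam1 was the 1 that rose.

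Neuronal structure genes fell in 19 of 29 tested and rose in 4 (32 listed). The neurofilament Nefl had among the steepest falls in the table, from 79.4 and 85.2 to 1.87 and 1.49 CPM (48.7-fold). Ina and Tubb3, an intermediate filament and a neuronal tubulin, fell 6.44-fold and 5.24-fold. Map2, the dendritic microtubule protein, rose 1.60-fold to 338 and 325 CPM. RNA-binding and splicing factors, in a list of mostly neuronal genes that also holds factors of other cells, fell in 16 of 26 tested and rose in 7 (27 listed). Elavl3 and Srrm4, which drive neuronal exons, fell 7.87-fold and 5.06-fold. Qk, a listed splicing factor of non-neuronal cells, rose 18.1-fold, from 25.1 and 17.7 to 400.4 and 377 CPM.

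Ion channels changed in the same direction as the vesicle genes. Calcium and sodium channel genes fell in 19 of 26 tested and rose in 5 (33 listed). The T-type channel Cacna1h went from 483 and 462 to 46.0 and 56.7 CPM (9.19-fold lower), while its relative Cacna1g rose 27.0-fold, from 1.04 and 0.937 to 25.6 and 28.4 CPM. The sodium channel Scn9a fell 8.29-fold. Potassium channel genes fell in 19 of 34 and rose in 9 (48 listed), with Kcnip2 and Kcnc1 down 9.64-fold and 7.07-fold. Axon guidance genes had no common direction, with 20 of 48 higher and 16 lower (60 listed). These counts are near the 37.7% higher and 34.0% lower over all genes tested. The median log2 change of the list was 0.14 with TMM and -0.01 with library totals. The receptor Unc5a fell 8.96-fold to 38.8 and 45.0 CPM, and semaphorins Sema3b, Sema3c and Sema3d rose 229.6-fold, 198-fold and 130.0-fold.

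The repressor of neuronal genes, Rest, went from 0 and 0.187 CPM at day 0 to 30.8 and 35.3 CPM at day 21, a ratio of 350.2-fold (95% counting interval 96.6 to 2898), with a mean of 1.70 CPM at day 3. Its corepressor Rcor2, of neural cells, fell 3.73-fold. Notch genes went both ways. The receptor Notch2 rose from 14.3 and 13.4 to 88.5 and 106 CPM, Jag1 rose 2.78-fold and Hes1, a Notch target, rose 2.07-fold. The inhibitory ligand Dll3 fell 5.82-fold, from 30.1 and 29.2 to 5.51 and 4.65 CPM, and the target Hey1 fell 4.01-fold. In the joint list of REST and Notch genes 7 of 25 tested rose and 13 fell (28 listed).

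**Figure D3:**
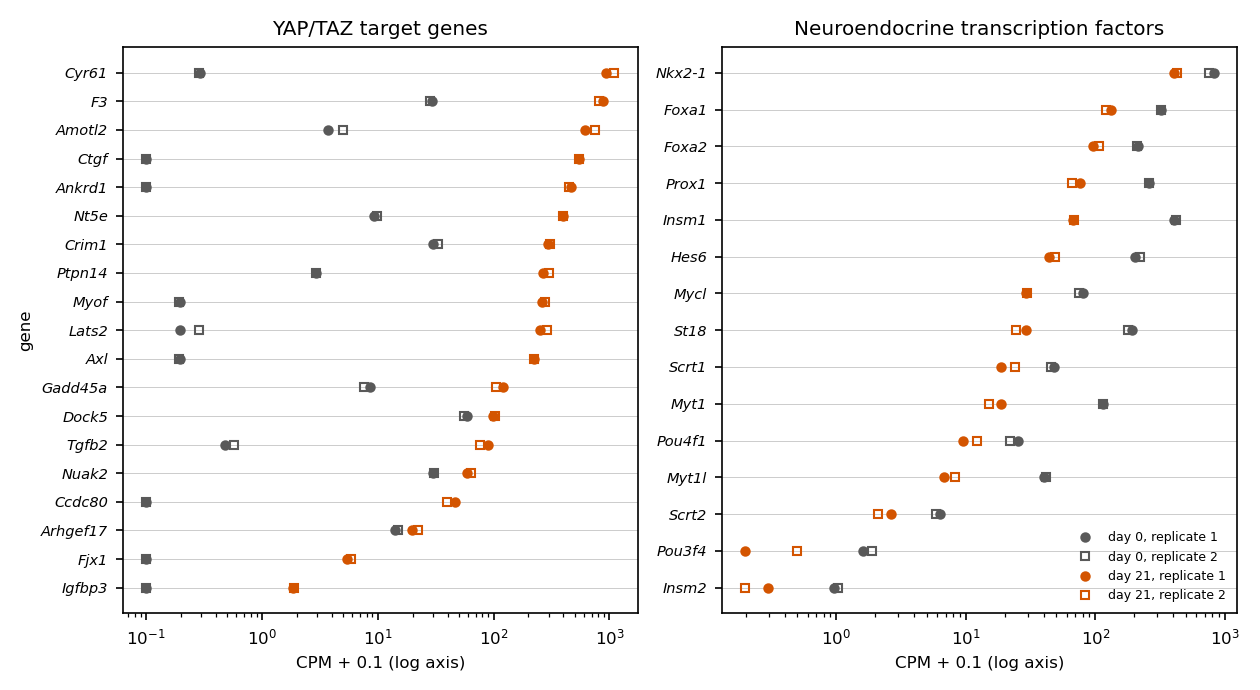
Level in each of the 4 libraries (x axis, CPM + 0.1 on a log axis) of the 19 called YAP/TAZ targets and 15 of the 16 called neuroendocrine transcription factors (y axis). Day 0 points lie left of day 21 points in every target and right of them in every neuroendocrine factor shown.

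Alveolar type I genes had the highest median change of the lung lineages examined, 6.05 on the log2 scale. Of 28 tested among 30 listed, 27 rose and 1 fell, Dpysl2, by 1.15-fold, a call lost without day 0 replicate 1. The summed level of the list was 2727 and 2730.3 CPM at day 0, 23612 CPM in the mean at day 7, and 17948 and 18994 CPM at day 21. Ager, the receptor that marks these cells (chromosome 17, 34597862 to 34600936), went from 4.55 and 5.25 to 1739.8 and 2190.1 CPM (399.7-fold), from a mean of 4521 CPM at day 7. Clic5, a chloride channel protein (chromosome 17, 44188584 to 44280172), went from 0 in both libraries to 902 and 904 CPM (at least 6382-fold). The caveolar protein Cav1 went from 0 to 263 and 222 CPM (at least 1714-fold). Pdpn, a membrane mucin of flat alveolar cells, rose 2899-fold, to 759 and 679 CPM. Col4a3, a collagen of the alveolar basement membrane, rose 2409-fold to 604 and 591 CPM, and Aqp5, a water channel, 28.5-fold to 186 and 221 CPM.

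Genes of other airway and alveolar cells also changed. In the alveolar type II and club list 18 of 20 tested rose and 2 fell (26 listed), and its summed level went from 274 and 271 to 724 and 727 CPM. Slc34a2 and Sftpd, a phosphate transporter and a surfactant protein, went from 0 to 15.0 and 14.2 and to 13.7 and 14.3 CPM. Scgb1a1, the secretory protein of club cells, reached 22.4 and 18.3 CPM. The defining surfactant gene Sftpc was at 3.51 and 3.75 CPM at day 0 and 6.20 and 6.34 CPM at day 21 (1.72-fold higher, not called by DESeq2), and Lamp3 had 0 counts in all 4 libraries. Abca3, the surfactant lipid transporter, was well expressed on both days and rose 1.49-fold.

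Multiciliated cell genes moved in the opposite direction, although at low levels. Of 20 tested 15 fell and 4 rose, from 48 listed, of which 39 matched a symbol of the table, and 2 rose when day 0 replicate 1 or day 21 replicate 2 was left out. Ccno, a cyclin needed to build many cilia, fell from 21.4 and 21.4 to 1.18 and 1.68 CPM (14.8-fold). Mcidas and Foxj1, factors of the same programme, fell 6.87-fold and 5.09-fold, and Myb fell 11.9-fold, from 67.8 and 65.4 to 6.30 and 4.85 CPM. In the tuft and basal list 10 of 11 tested rose and 0 fell (19 listed; 1 fell with library totals or without day 21 replicate 2), with Ptgs1 going from 0 to 116 and 112 CPM and the keratin Krt14 from 0 to 50.4 and 46.3 CPM. The other rises were Ascl2, Trpm5, Avil, Sox9, Chat, Plcg2, Krt17 and Ngfr. Some defining genes of these cells were not among the rises. Pou2f3, the master factor of tuft cells, and Trp63 and Krt5, which define basal cells, held at most 3 counts over both libraries of a day.

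Epithelial adhesion genes rose more often than they fell. Of 48 tested keratin and junction genes 34 rose, 7 fell, 5 of them by at least 2-fold, and 7 were not called (55 listed). The keratins Krt8 and Krt18 of simple epithelium were not called, Krt18 at 797 and 841 CPM and 887 and 947 CPM, but Krt18 was called higher without day 21 replicate 1 (log2 change 0.21) and Krt8 lower with library totals (-0.22). Krt19 rose 234-fold, from 3.89 and 4.03 to 881 and 974 CPM, and the tight junction gene Cldn4 80.9-fold. Cdh1, E-cadherin, rose 1.44-fold (878 and 912 to 1292 and 1280.2 CPM), while Epcam fell 1.86-fold. Gjd2, the gap junction protein of neurons and endocrine cells, fell 15.1-fold, from 54.0 and 53.5 to 3.84 and 3.27 CPM. The other members that fell were Tjp3, Dsp, Ovol1, Elf3 and Ehf. Grhl2 and Ovol2 were not called, while Grhl1, Klf4 and Klf5 were among the rises.

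Mesenchymal genes rose, several of them from near 0. Of 14 tested among 23 listed 12 rose and 0 fell. Vim went from 0 in both libraries to 23.8 and 19.4 CPM and was under 1 CPM at days 3 and 7. Fn1, fibronectin, stood at 79.5 and 66.0 CPM after 0.190 and 0.0937, a ratio of 514-fold (95% counting interval 176 to 2497). The list also held Cnn2, an actin-binding calponin, and Lox, which crosslinks collagen. Cnn2 went from 6.36 and 6.37 to 609 and 621 CPM (96.4-fold) and Lox from 0.380 and 0.0937 to 559 and 489.8 CPM (2116-fold). Cd44, the hyaluronan receptor, differed between the day 21 libraries, at 43.9 and 23.1 CPM. Among inducers of mesenchymal transition at day 21, Snai1 was at 1.77 and 2.08 CPM, Zeb1 at 0.394 and 0.495 CPM and Twist1 at 0 counts in the 4 libraries. Cdh2, N-cadherin, was not called (104 and 105 CPM in the mean).

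Matrix and adhesion genes rose widely. Collagens and matrix glycoproteins rose in 28 of 34 tested and fell in 4 (48 listed), and their summed level went from 1319 and 1344 CPM to 8317 and 8411 CPM. Sparc, a collagen-binding glycoprotein, was at 0 and 0.281 and then 1857 and 1692 CPM, a ratio of 12546-fold (95% counting interval 4293 to 60842). Col5a2 went from 0 to 271 and 256 CPM and Col4a5 from 0 to 114 and 109 CPM. Vcan, a proteoglycan, fell 6.45-fold, and Col18a1 fell 2.63-fold to 96.1 and 123 CPM.

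Of 57 tested integrin, laminin and focal adhesion genes (60 listed) 55 rose and 1 fell, with a median log2 change of 2.88. Itga3, a laminin receptor, rose 12.3-fold, from 157 and 168 to 1818 and 2185 CPM. Lama3, a laminin chain, went from 0 to 229 and 225 CPM (at least 1605-fold). Lmna, a nuclear lamin, was the 1 that fell (1.37-fold). Outside this list, Thbs1, thrombospondin, a member of the matrix list, rose 33.0-fold, from 47.6 and 59.9 to 1752 and 1794 CPM. Cytoplasmic actin Actb, also outside this list, rose 4.39-fold to 2113 and 2143 CPM.

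Proteases and serpins rose in 28 of 33 tested and fell in 3 (44 listed). Serpinb6b went from 0 to 374 and 346 CPM and Serpinb9b reached 676 and 609 CPM. Both belong to clustered families of similar copies, so their counts are uncertain between relatives. Htra1, a secreted serine protease, was at 0 and 0.187 CPM at day 0 and 508 and 526 CPM at day 21, a ratio of 5480.0-fold (95% counting interval 1517 to 45256). Serpine2, an inhibitor of serine proteases, fell 6.93-fold, from 151 and 165 to 23.4 and 22.1 CPM.

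Growth factor genes changed on both the ligand and the receptor side. Of 44 tested among 57 listed 32 rose and 6 fell. Among EGF receptor ligands, Hbegf rose 55.3-fold, from 5.69 and 5.53 to 307 and 314 CPM, and Ereg went from 0 to 34.2 and 27.2 CPM (at least 217-fold). Egfr, their receptor, rose 2.01-fold (91.3 and 93.8 to 184 and 188 CPM). The receptor kinase Axl was at 0.0949 and 0.0937 CPM at day 0 and 223 and 223 CPM at day 21, a ratio of 2362-fold (95% counting interval 654 to 19514), and under 1 CPM at day 3. Epha2, an ephrin receptor, rose 621-fold to 292 and 309 CPM. Kit, the stem cell factor receptor, fell 6.18-fold, from 90.3 and 90.5 to 15.4 and 13.9 CPM. Igf2 rose 2.65-fold to 2601 and 2463 CPM and the binding protein Igfbp5 fell 4.78-fold to 300.4 and 307 CPM, from a day 7 mean of 153 CPM.

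MAPK feedback and immediate early genes, listed together, rose in 23 of 31 tested and fell in 5 (33 listed). The 5 that fell, Jun among them, are immediate early genes. The ETS factor Etv4 rose 51.0-fold, from 0.664 and 0.656 to 34.5 and 34.1 CPM, and the phosphatase Dusp5 11.1-fold to 52.8 and 51.2 CPM. AP-1 subunits were divided. Fosl2 rose 4.51-fold to 351 and 416 CPM, Jun fell 1.60-fold to 108 and 127 CPM, and Fosl1 was not called at 2.17 and 1.98 CPM.

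In the TGF-beta, BMP and activin list 25 of 38 tested rose and 10 fell (42 listed), with ligands and receptors in both directions. Smad3, a signal transducer, rose 95.2-fold, from 1.71 and 1.12 to 132 and 139 CPM, and its receptor Tgfbr2 124-fold to 42.8 and 42.2 CPM. The activin subunit Inhba went from 0 to 36.4 and 33.1 CPM and the BMP antagonist Nog from 0 to 32.2 and 29.0 CPM. Bmp4 reached 126 and 105 CPM after 0 and 0.0937, a ratio of 2449-fold (95% counting interval 439 to 96768). The ligands Bmp2 and Bmp7 fell 3.73-fold and 3.87-fold, the receptor gene Acvr1 fell 1.95-fold, and the co-receptor gene Tgfbr3 fell to 4.23 and 5.65 from 15.6 and 14.2 CPM. Id1, Id2 and Id3, inhibitors of basic helix-loop-helix factors and targets of BMP, fell 2.26-fold, 8.55-fold and 4.01-fold, Id2 from 137 and 158 to 19.0 and 15.5 CPM.

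In the Wnt list 19 of 34 tested rose and 8 fell (47 listed), beside 37.7% higher and 34.0% lower over all genes tested. The ligands Wnt7a and Wnt7b rose 675-fold and 564-fold, Wnt7b from 0.664 and 0.750 to 387 and 425 CPM. Feedback inhibitors of the canonical pathway went both ways. Axin2 fell 5.26-fold, from 25.0 and 24.0 to 5.51 and 3.76 CPM, Nkd1 4.22-fold, Notum 5.83-fold and Apcdd1 8.23-fold. The receptor-removing ligases Znrf3 and Rnf43 were called higher instead, Znrf3 by 1.27-fold (a call lost with library totals) and Rnf43 at 1.87 and 1.68 CPM after 0.0949 and 0.0937. Wif1, a secreted Wnt inhibitor, went from 21.3 and 26.8 to 0.295 and 0.297 CPM (78.0-fold).

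**Figure D4:**
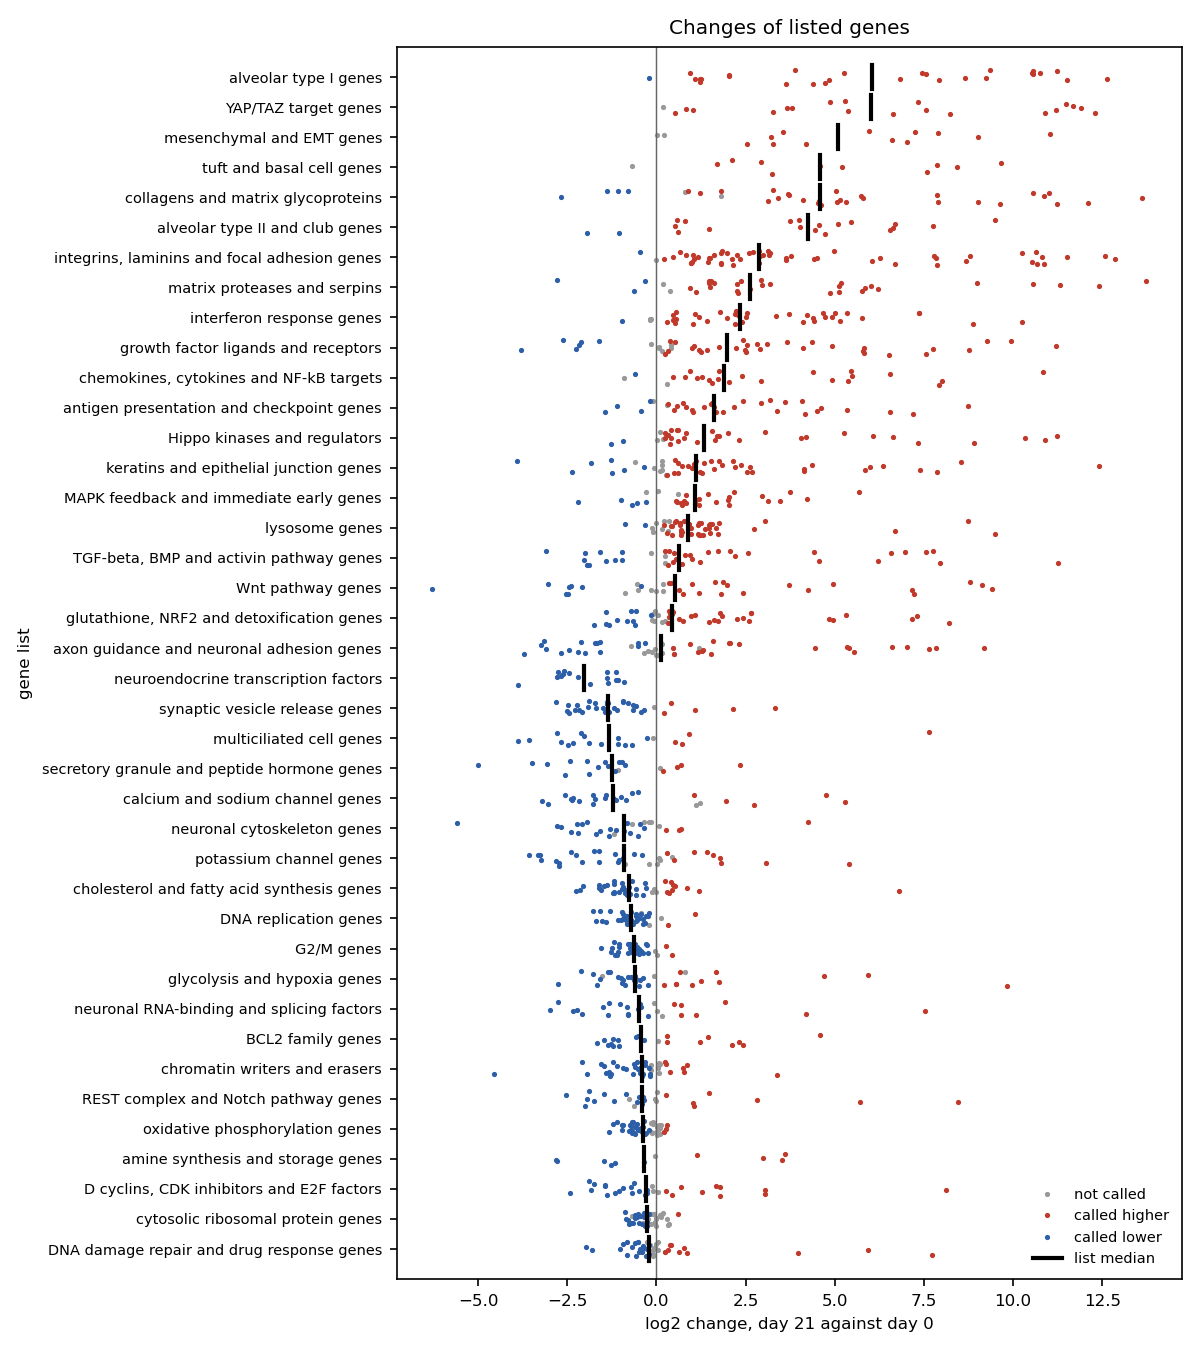
Log2 change at day 21 against day 0 (x axis) for each tested member (points) of the 40 gene lists (y axis), with genes at 0 counts on a day set to the floor of 3 counts and those at 1 to 3 at their ratio of counts, and a bar at the list median. Integrin, alveolar type I and YAP/TAZ lists lie right of 0 almost throughout, and neuroendocrine factors and cell division lists lie left of it.

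Immune signalling genes mostly rose. Of 5 tested immune cell markers 2 rose and 2 fell: the leukocyte gene Ptprc held 0 counts, but the macrophage gene Csf1r reached 107 and 128 CPM from 0. The part of other cells in these rises was not tested. Interferon response genes rose in 36 of 40 tested and fell in 1 (43 listed), with a median log2 change of 2.35. The members that fell were 3 with library totals and 2 without either day 21 library. Ifi44 went from 0 to 78.3 and 54.6 CPM and was at 0 at day 3. Irf7, a factor that amplifies the response, rose 25.5-fold, from 0.949 and 1.41 to 31.5 and 29.3 CPM, and Isg15 rose 21.1-fold. Antigen presentation genes rose in 27 of 33 tested and fell in 4 (36 listed). B2m, the shared MHC class I chain, rose 40.4-fold, from 10.2 and 10.2 to 479 and 345 CPM, so the day 21 libraries differed by less than the days did. The heavy chains H2-K1 and H2-D1 rose less, 1.77-fold and 1.68-fold, and as near copies they may exchange reads. Cd274, the checkpoint ligand PD-L1, rose 17.1-fold to 122 and 122 CPM. The proteasome activator Psme1 fell 2.70-fold.

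Inflammatory genes rose in 21 of 24 tested and fell in 1 (44 listed). The prostaglandin synthase Ptgs2 stood at 91.7 and 81.4 CPM after 0 and 0.0937, a ratio of 1836-fold (95% counting interval 329 to 72576), and at a mean of 0.830 CPM at day 7. Icam1, a leukocyte adhesion molecule, rose 241-fold, from 1.04 and 1.59 to 309 and 335 CPM. Csf1 rose 92.6-fold to 139.8 and 142 CPM. Its receptor Csf1r, a macrophage gene, went from 0 to 107 and 128 CPM, whereas the macrophage genes C1qa and Lyz2 fell to 0.295 and 0.297 and 1.48 and 1.09 CPM. Cytokines often tied to NF-kB, Il6 and Cxcl1, held at most 2 counts over both libraries of a day.

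Cell division genes were lower by modest factors. Of 34 G2/M genes, all tested, 30 fell and 2 rose, and of 39 replication genes 34 fell and 2 rose. Their median log2 changes were -0.62 and -0.71. Mki67, the proliferation antigen, went from 1114 and 1210.3 to 517 and 518 CPM (2.25-fold lower), above its day 7 mean of 476 CPM. Pcna, the replication clamp, fell 2.47-fold and the polymerase subunit Pola1 3.41-fold. Foxm1 and Anln rose, 1.21-fold and 1.36-fold, Foxm1 from 128 and 135 to 149.7 and 169 CPM. The Foxm1 call was lost with library totals and without day 0 replicate 1, each of which left 1 higher member in both lists, as did leaving out day 0 replicate 2 or day 21 replicate 2 in the replication list.

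The D cyclins, which drive entry into the cycle by opposing RB, rose together. Ccnd1 rose 8.21-fold, from 47.0 and 44.5 CPM, and Ccnd3 3.46-fold. Ccnd2 was at 0 at days 0 and 3 and reached 39.2 and 39.7 CPM (at least 279-fold). The CDK inhibitors went both ways. Cdkn2a and Cdkn2b rose 2.41-fold and 8.32-fold, Cdkn1a, p21, fell 3.38-fold to 101 and 105 CPM, and Cdkn2c fell 2.24-fold. E2f2 and Ccne2 fell 5.35-fold and 3.54-fold. In the whole list of 31, 30 were tested, 10 rose and 17 fell.

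DNA repair and drug response genes changed mostly by small factors, with a median log2 change of -0.21. Of 42 tested (43 listed) 10 were higher and 21 lower, beside 37.7% and 34.0% over all genes tested. In each direction 3 changed by at least 2-fold. The higher members numbered 6 without day 0 replicate 2 and 5 with library totals. Those 3 rises included the efflux pump gene Abcb1a, at 10.9 and 9.11 CPM after 0 and 0.0937, and its near copy Abcb1b. Slfn9, of a family that tunes the response to DNA damage, fell 3.49-fold, from 104 and 119.7 to 32.0 and 32.1 CPM. Among BCL2 family genes 8 of 20 tested rose and 11 fell (22 listed), beside 37.7% higher and 34.0% lower over all genes tested. The rises held survival genes and a death-promoting gene. Bcl2 rose 5.33-fold to a mean of 22.2 CPM, Bcl2l1 2.70-fold to 359.8 and 424 CPM and Mcl1 2.34-fold to 246 and 236 CPM. The death-promoting genes Bmf and Hrk fell 2.75-fold and 2.57-fold, while Bak1, also death-promoting, rose 4.94-fold.

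Several glycolytic enzyme genes fell. Ldha, lactate dehydrogenase, went from 2593 and 2740.1 to 1085 and 1096 CPM (2.44-fold lower), Aldoa from 3727 and 3905 to 2543 and 2583 CPM (1.49-fold) and Gpi1 from 1544 and 1489.6 to 472 and 545 CPM (2.98-fold). In the glycolysis and hypoxia list of 37, all tested, 23 fell and 11 rose. The glucose transporter Slc2a3 and the hypoxia gene Car9 were among the rises, Slc2a3 to 91.7 and 80.7 CPM from 0.190 and 0. Gapdh was not called (adjusted p = 0.369), and its day 21 libraries held 110.3 and 26.1 CPM. Its log2 change was -0.58 without day 21 replicate 1 and 1.49, past the threshold, without day 21 replicate 2.

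Lipid synthesis genes fell in 28 of 41 tested and rose in 10 (42 listed). Scd2, a fatty acid desaturase, went from 3145 and 3069 to 1306 and 1397 CPM (2.30-fold). Insig1 and Srebf1, which report and direct sterol and lipid synthesis, fell 4.81-fold and 3.06-fold. The desaturase Fads3 went against the list, rising 111-fold from 4.84 and 4.50 to 503 and 531 CPM.

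Lysosome genes rose in 42 of 51 tested and fell in 2 (52 listed), with a median log2 change of 0.89. Ctsc, a cathepsin, went from 0 to 66.0 and 53.4 CPM, and Ctsh reached 101 and 103 CPM after 0.0949 and 0.187. Npc2, the lysosomal cholesterol carrier, rose 6.62-fold to 329.6 and 329.7 CPM. Detoxification genes rose in 27 of 45 and fell in 11 (50 listed), including Cyp1b1, which rose 295-fold to 85.6 and 88.6 CPM, and Aldh1a2, which fell 3.37-fold.

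Respiratory chain genes fell in 27 of 45 and rose in 3, all but 3 of them by less than 2-fold, and 0 rose with library totals. Cytosolic ribosomal protein genes fell in 23 of 46 tested and rose in 1 (47 listed), none by 2-fold. Many of these have processed copies in the genome, which makes their counts uncertain. Of these, 2 rose without either day 0 library and 4 without day 21 replicate 2. The mitochondrial gene mt-Nd2 gained 1.72-fold, from 2389.9 and 2490.4 to 4774 and 3597 CPM. Symbols with the prefix mt- took 3.66% and 3.85% of the counts at day 0 and 3.89% and 2.95% at day 21.

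Chromatin regulators fell in 27 of 42 tested and rose in 7 (43 listed), or in 4 without day 0 replicate 1. Hdac9, a class IIa deacetylase, fell 23.6-fold, from 27.1 and 24.7 to 0.984 and 1.19 CPM, and its relative Hdac7 rose 10.5-fold, from 12.3 and 11.8 to 115 and 138 CPM. Tet1, a DNA demethylation enzyme, fell 3.89-fold and Actl6b, the neuronal subunit of the BAF remodeller, 4.24-fold. Ezh2 fell 1.92-fold to 69.5 and 71.8 CPM. The demethylase gene Kdm6b fell 2.13-fold.

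The remaining genes named for the size of their change were these. From 0 in both day 0 libraries, Mal, a membrane raft protein, reached 575 and 474 CPM, Msln, mesothelin, 415 and 471 CPM, the adhesion molecule Mpzl2 439 and 402 CPM, the natriuretic peptide receptor Npr3 203 and 204 CPM, the CCN family gene Wisp1 195 and 190.1 CPM and the prostaglandin transporter Slco2a1 144 and 163 CPM. Emp2, a membrane protein of alveolar cells, gained 1771 CPM, Gprc5a, a receptor of lung epithelium, 1486 CPM and the kinase gene Wnk1 1213.5 CPM. Dmpk, a muscle kinase, fell 15.0-fold, from 162 and 192 to 11.7 and 11.8 CPM. B3galt5, Cpne5, Slc2a13, Cdk5r1, Miat, Upp1 and Coro1a fell 13.6-fold to 37.1-fold. Nnat, an imprinted neural gene, fell 7.88-fold to 216 and 201 CPM and the mitochondrial carrier Ucp2 3.04-fold.

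Markers of other cell types were examined in the same libraries. Of 20 immune markers 5 were tested, 2 rose and 2 fell, and Csf1r supplied nearly all of the list's summed level at day 21 (119.8 and 142 CPM). Ptprc had 0 counts in all 4 libraries and Cd3e at most 1 per day. Of 18 fibroblast and pericyte markers 10 were tested, 9 rose and 1 fell, and their sum went from 19.7 and 20.2 to 91.9 and 80.8 CPM. Acta2 reached 20.4 and 16.5 CPM and Pdgfrb 15.2 and 17.9 CPM, while Col1a1 stood at 4.04 and 3.37 CPM and Col3a1 at 0 and 0.198 CPM. Some of these are also matrix or YAP-responsive genes, and the part of other cells in the mesenchymal and matrix results was not tested. Of 12 endothelial markers 6 were tested, 2 rose and 2 fell. Esam rose 12.5-fold to 6.50 and 6.73 CPM and Tie1 stood at 2.85 and 2.67 CPM after 0.0949 and 0. Pecam1, Cdh5 and Kdr were all at or under 1.29 CPM and Vwf was at 370.2 and 384 CPM at day 0 and 113 and 138 CPM at day 21 (3.01-fold lower). Erythroid markers were at most 0.295 CPM in sum.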

How the data were processed

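Poly(A) RNA of cultured tumour cells was sequenced. The submitters' processing notes name STAR 2.4.2, featureCounts and the mm10 build, while the annotation, strand setting and featureCounts version are not given in the sources used here. For each library, the authors deposited raw counts for 32926 gene symbols (14 libraries). From these, the 8 YAP5SA libraries (days 0, 3, 7 and 21, n = 2 each) were fitted together for a shared spread, with TMM scaling, filterByExpr, edgeR 4.0.16 (R 4.3.3) and its quasi-likelihood F test with robust estimation, and Benjamini-Hochberg adjustment over 13996 genes (biological coefficient of variation 0.0548). The contrast was day 21 against day 0. The pipeline was tested on simulated data in which few genes changed, equally often up and down. In the real contrast 71.7% of genes were called, so the simulation does not check the calls at that breadth. Alternatives used DESeq2 1.42.0, limma 3.58.1, other scalings and filters, and other sets of libraries.

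The comparison, the 45 gene lists (1548 symbols, 1534 found in the table) and the naming rule were chosen with earlier results of these data known. The rule took Yap1 and the floxed genes, the 15 steepest called rises and falls with at least 10 CPM on the higher day, no overlap and no clone name, the 10 largest gains and losses of CPM, and up to 4 members of a list in its main direction and 2 in the other. Some genes that the rule names are not reported here. Other members are given as values. Some genes are in more than 1 list. Coordinates are those of GENCODE M21 on mm10. Same-numbered replicates did not deviate together, so the numbers were not taken as pairs. Protein sequences were not used here.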

Additional observations from a re-analysis of the deposited data

How the results depend on the processing

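Of 10032 called genes, 0 were called in the opposite direction under any alternative, but the number called depends on the choices. Testing for a change beyond 2-fold gave 2236 higher and 1119 lower. All 14 libraries in 1 fit gave 2728 and 1858, and 13 libraries, with NE replicate 2 left out after seeing the data, 2949 and 2136. These 3 alternatives reduced 47, 57 and 52 of 90 counts of list members by more than 1.5 times, and 28, 44 and 36 named genes lost their call. The replicate block gave 5233 higher and 4709 lower and changed no call of a named gene, although same-numbered libraries did not pair (correlations of deviations -0.060 to 0.025). Leaving out each of the 4 libraries in turn gave 4878 to 5147 higher and 4234 to 4630 lower. DESeq2 called 4900 and 4119, and limma-voom 5251 and 4759.

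Promoter shares among genes changed at least 2-fold rather than 4-fold were 16.4% for GGAATG in genes higher, 8.09% for TGANTCA in genes higher and 5.26% for TGANTCA in genes lower, the last close to the share of all genes. Among the named genes, log2 changes that reversed were all of genes that were not called. Library totals gave -0.0458 for Vgf, -0.0385 for Nf2 and -0.131 for Cdh2, and Cdh2 was -0.00859 with all 14 libraries and -0.00915 with 13. Leaving out 1 library gave Cdh2 -0.0169 to 0.034 and Gapdh -0.579 to 1.49. With 2 libraries a day, the spread rests on pairs, and genes at a few counts have wide intervals.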

Other observations

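Several groups of genes outside the lists stood out, and they were chosen after their values were seen. Genes of the actin cytoskeleton and of muscle moved in both directions. Msn, which ties actin to the membrane, was at 0 and 0.187 CPM at day 0 and 1144 and 1109.6 CPM at day 21, a ratio of 11949-fold (95% counting interval 3307 to 98671). The LIM protein gene Fhl1 went from 0.190 and 0.187 to 934 and 886 CPM (4531-fold), the caldesmon gene Cald1 from 37.5 and 37.9 to 1077 and 1117 CPM (29.1-fold) and the small heat shock protein gene Cryab from 0.854 and 1.87 to 847 and 872 CPM (623-fold). The sarcomere genes Obsl1 and Klhl41 fell instead, 6.33-fold and 6.05-fold, Obsl1 from 771 and 809 to 112 and 138 CPM. Each of these changes passed the edgeR test at an adjusted p of at most 6.6e-16. The genes were chosen by their values in the same contrast, so this adds no support.

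Genes of stratified or urinary epithelium were detected at day 21. Scel, a protein of the cornified envelope, rose 1208-fold to 258 and 227 CPM. Upk1b, a urothelial plaque protein, stood at 136 and 127 CPM after 0 and 0.0937, a ratio of 2792-fold (95% counting interval 501 to 110330.0). The dopamine receptor gene Drd2 was at 82.8 and 85.1 CPM and then 12.6 and 11.8 CPM (6.88-fold), and the glutamate receptor genes Gria2 and Grin3a fell 7.36-fold and 12.7-fold. The mechanically gated channel Piezo2 fell 8.08-fold, from 449 and 415 to 52.4 and 54.5 CPM, and Lin28a, an RNA-binding protein of embryonic cells, fell 5.96-fold.

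A few genes had a peak at day 7 that the comparison of days 0 and 21 hides. The zinc transporter Slc39a4 was at 145 and 134 CPM at day 7 and 8.37 and 11.5 CPM at day 21, and Cplx1 at 330.3 and 292 and 14.8 and 14.8 CPM. Genes at or above 20 CPM whose 2 day 21 libraries differed most were Gapdh (110.3 and 26.1 CPM), Ubb (66.9 and 139 CPM) and Cd44 (43.9 and 23.1 CPM).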
